A study of Mus musculus with 2 samples.

Results

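The 10 genes described here are heat shock proteins and chaperones, taken by name from the list Hspa1a, Hspa1b, Hspb1, Hsp90aa1, Hsp90ab1, Hspa8, Hspa5, Dnajb1, Hsph1 and Hspe1. All 10 of 10 were found among the 15169 genes of the deposited table, and each was followed in every annotated cell type of both libraries. The rule uses gene names and no measured value, but the list was chosen with earlier results of these data known. The data were single-cell RNA profiles of whole kidney from wild-type C57BL/6 mice aged 9 weeks. The control library came from normal kidney (6589 cells). The injured library came after unilateral ischaemia-reperfusion injury, a clamp on the blood supply that is then released, with the other kidney removed (5170 cells). It is abbreviated IRI below, and the sources used here give no time after injury. The effect of the clamp cannot be told apart from that of the nephrectomy, since no library had only one of them, and every kidney was digested with Liberase and DNase I for 25 min at 37 °C before capture.

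Chaperones bind unfolded or partly folded proteins and help them fold, refold or be degraded. The transcription factor HSF1 raises the inducible members when proteins unfold in the cytosol, as in heat, lack of oxygen or acid stress. The unfolded protein response raises those of the endoplasmic reticulum. In the kidney, proximal tubule cells depend on oxidative metabolism and are a main site of ischaemic damage, and inducible HSP70 and the small heat shock protein of Hspb1 are known stress proteins of the tubule. Hspa1a and Hspa1b encode near-identical inducible HSP70 proteins, and Hspa8 the constitutive HSP70. Hsp90aa1 and Hsp90ab1 encode the inducible and constitutive cytosolic HSP90. Dnajb1 is a J-domain partner that starts the HSP70 cycle, and Hsph1 exchanges its nucleotide. Hspa5, also called BiP, is the HSP70 of the endoplasmic reticulum, and Hspe1 is the small lid subunit of the mitochondrial chaperonin.

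Upstream sequences are shown for 5 members on which the results below turn, namely the inducible HSP70 pair, Hspb1, the endoplasmic reticulum member Hspa5 and the mitochondrial member Hspe1. Each is given as the 250 bases before the RefSeq start on GRCm38.p6 (5′ to 3′ on the gene's strand). Of the 10 members, 7 had an entry in the table. Capitals mark heat shock half-site pairs, either head-to-head (GAANNTTC) or tail-to-tail (TTCNNGAA), searched on both strands, overlaps included. In Hspa5 they mark an endoplasmic reticulum stress element, the word CCAAT followed after 9 letters by CCACG. The Hspa1a window lies at chr17:34972157-34972406 and that of Hspa1b at chr17:34959239-34959488, both on the minus strand. The Hspb1 window is chr5:135887669-135887918, that of Hspa5 chr2:34771840-34772089 and that of Hspe1 chr1:55087898-55088147, all on the plus strand.
Hspa1a: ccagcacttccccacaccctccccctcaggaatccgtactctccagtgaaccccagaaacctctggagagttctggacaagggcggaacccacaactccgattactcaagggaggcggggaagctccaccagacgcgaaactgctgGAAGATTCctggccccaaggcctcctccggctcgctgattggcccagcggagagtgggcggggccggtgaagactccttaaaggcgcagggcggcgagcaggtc
Hspa1b: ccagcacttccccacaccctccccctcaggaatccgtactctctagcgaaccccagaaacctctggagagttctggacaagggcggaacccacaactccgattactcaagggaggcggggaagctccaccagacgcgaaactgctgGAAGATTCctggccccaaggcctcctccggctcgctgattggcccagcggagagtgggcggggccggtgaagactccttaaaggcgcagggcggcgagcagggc
Hspb1: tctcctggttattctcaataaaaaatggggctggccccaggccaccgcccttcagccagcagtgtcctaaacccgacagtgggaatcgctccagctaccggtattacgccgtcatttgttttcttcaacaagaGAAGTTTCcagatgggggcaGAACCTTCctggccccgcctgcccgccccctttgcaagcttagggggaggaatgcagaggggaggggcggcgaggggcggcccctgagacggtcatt
Hspa5: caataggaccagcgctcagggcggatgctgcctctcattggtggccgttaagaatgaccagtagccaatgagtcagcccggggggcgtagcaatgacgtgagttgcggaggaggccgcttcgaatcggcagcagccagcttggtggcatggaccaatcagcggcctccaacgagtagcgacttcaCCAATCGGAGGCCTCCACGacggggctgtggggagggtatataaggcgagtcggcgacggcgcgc
Hspe1: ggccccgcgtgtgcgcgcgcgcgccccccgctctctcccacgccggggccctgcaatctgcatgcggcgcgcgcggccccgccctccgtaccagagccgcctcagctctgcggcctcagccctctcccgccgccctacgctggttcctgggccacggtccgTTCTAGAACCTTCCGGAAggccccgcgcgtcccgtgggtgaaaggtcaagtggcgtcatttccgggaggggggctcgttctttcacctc
The upstream windows of Hspa1a and Hspa1b differed at 3 of 250 bases and each held 1 head-to-head pair. The Hspb1 window held 2 such pairs. In Hspe1, both kinds of pair overlapped to give 2 full elements, which began 89 and 84 bases before the start. Of the members with an entry that are not shown, Dnajb1 held no heat shock pair and no stress element in either of its windows. Each Hsph1 window held 1 tail-to-tail pair. Among all 32851 windows of this length in the table, 6.69% held a head-to-head pair, 7.17% a tail-to-tail pair, 0.466% a full element and 0.113% the stress element of Hspa5. A match describes letters and not a bound site. Reads of Hspa1a and Hspa1b could be mixed, since 58.8% of the 50-base windows of the Hspa1a transcript also occur in Hspa1b, although none in its last 500 bases, where 3′ libraries read. The split between these genes is uncertain, and they are also given summed.

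Each group below is 1 library, so no difference between control and IRI has a replicate check and no test was possible. Control held 24169073 raw UMIs (unique molecules), a median of 2344 per cell, and IRI 16816996, a median of 1888.5, and 55 cell barcodes occurred in both libraries. The values are depth-corrected counts per cell, in which every cell was brought to a similar total (1468 to 3212), and a level is their mean over the cells of a type in a library. Intervals of shares are exact 95% Clopper-Pearson intervals and cover counting error only. Marker genes were highest under the matching deposited type name in most types, for example Umod in thick ascending limb (TAL), Cd3e in T cells and Emcn in vasculature. Thin descending limb (tDL) was an exception. Aqp1, which marks that segment, stood at 0.25 and 0.129 in tDL cluster 9 (control and IRI) and at 0.57 and 0.35 in tDL cluster 11, against 3.09 in IRI vasculature. In tDL, 420 of 440 IRI cells belonged to cluster 9 and 391 of 427 control cells to cluster 11, so the name joins unlike cells of the libraries.

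The correction for depth also changed what a value above 0 means. All 3491 cells with under 1000 raw UMIs had more genes above 0 than genes detected, while this held for 0 of 6069 cells with at least 2000 UMIs. No cell under 1011 UMIs stood at 0 for Hspa8. For Hspa8, Hspe1 and Hsp90ab1, shares of cells above 0 are therefore given only for cells of at least 2000 UMIs, called deep cells.

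**Figure D1:**
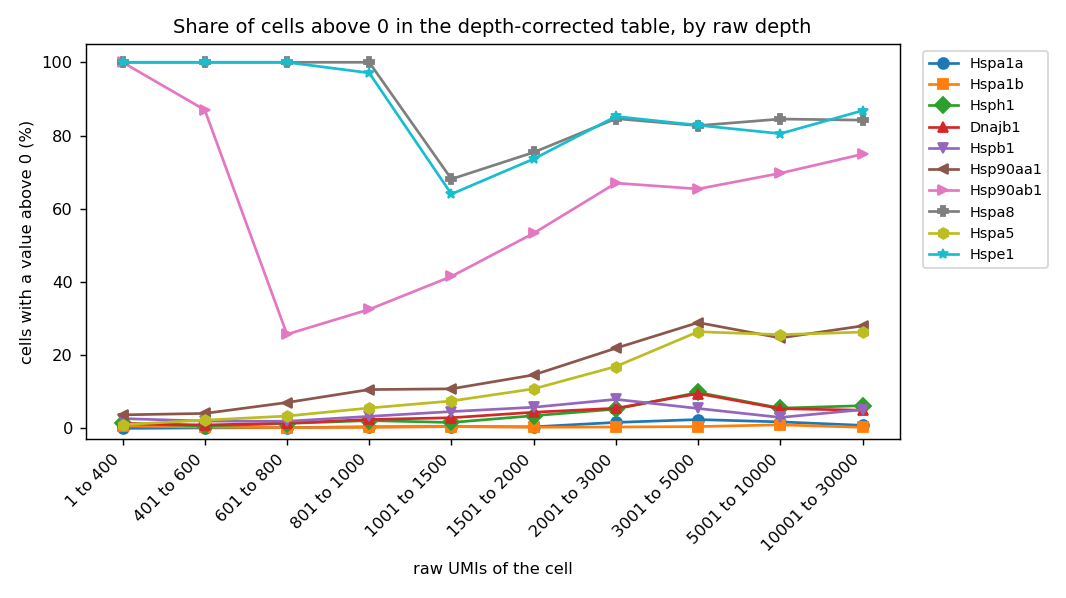
Share of cells with a value above 0 (y axis, percent) against the raw UMIs of the cell (x axis, bins) for each of the 10 genes, both libraries together. Hspa8 and Hspe1 lie at or near 100% in the shallowest cells and fall above 1000 UMIs. Hspa1a is highest at 2.41% in cells above 3000 and up to 5000 UMIs and lies at 0.826% above 10000.

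Hspa8, Hspe1 and Hsp90ab1 were the members found most widely over types, and Hspa1a and Hspa1b were found in few cells. Which member stood highest differed by type. Among deep control cells, Hspe1 was above 0 in 98.4% and Hspa8 in 91.1% of the second proximal tubule segment. In deep control T cells the shares were 63.8% and 80.9%. Over all cells, the mean of Hspa8 was 2.03 in control and 2.64 in IRI. Hsp90aa1 stood at 0.179 and 0.305, Hspa5 at 0.193 and 0.209, and Hspb1 at 0.0413 and 0.157. Hspa1a stood at 0.0188 and 0.00948. The mix of types differed between the libraries, and what part it has in these means was not tested. The second proximal tubule segment had 2785 of 6589 control and 1482 of 5170 IRI cells. Macrophages named for the receptor Cx3cr1 had 106 and 19. Together the 10 genes made up 0.29% of the corrected total in control and 0.312% in IRI, with the lowest share in control red blood cells (0.0108%) and the highest in IRI tDL (0.394%, against 0.263% in control tDL).

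**Figure D2:**
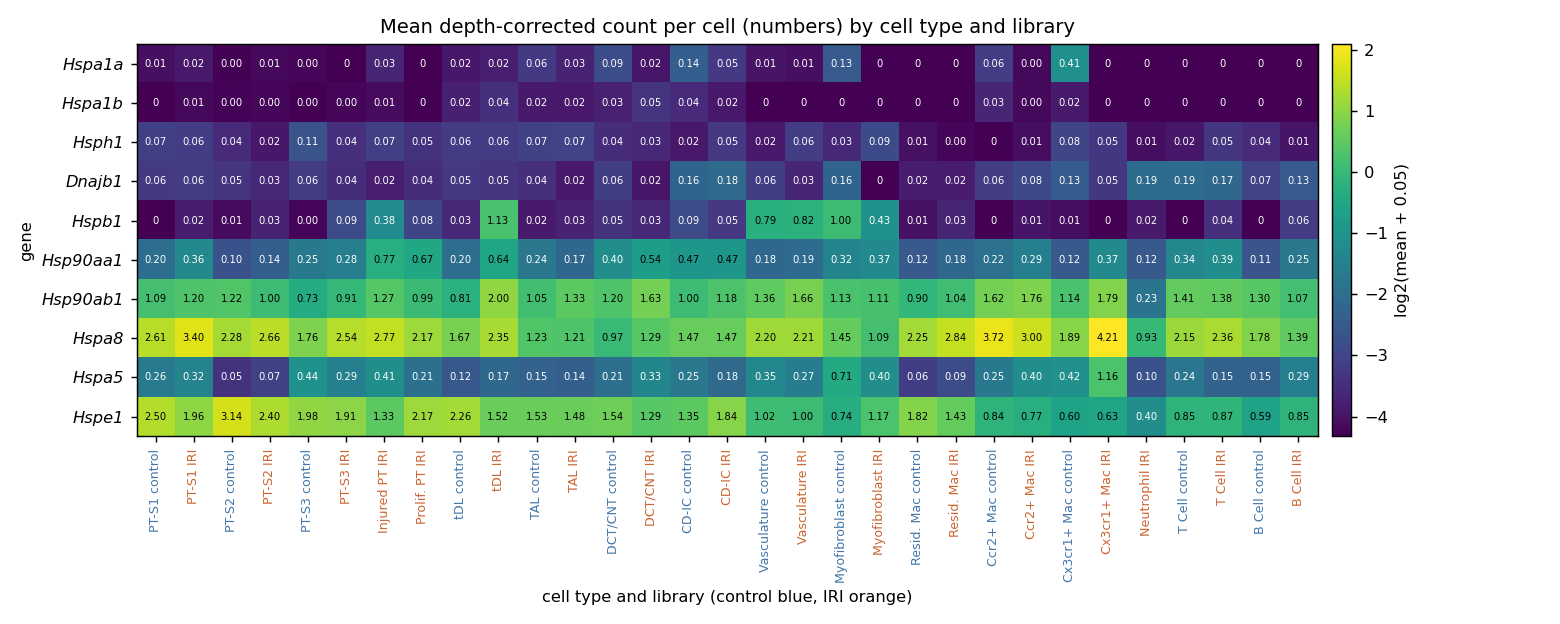
Mean depth-corrected value per cell (numbers, coloured by log2 of the mean + 0.05) of each of the 10 genes (rows) in each cell type and library (columns). Hspa8, Hspe1 and Hsp90ab1 are present throughout, whereas Hspa1a and Hspa1b are at 0 in T cells, B cells and resident macrophages.

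Inducible HSP70 RNA was scarce. By deposited type, it was most frequent in the control kidney's macrophages named for the receptor Cx3cr1 (complement gene C1qa at 13.5). In that group 23 of 106 cells (21.7%, 14.3 to 30.8) had a value above 0 for Hspa1a or Hspa1b, against 0 of 19 cells in IRI, where 19 cells allow a share of up to 15.8% and the interval (0 to 17.6) overlaps that of control. The mean of Hspa1a there was 0.415 in control. The highest cell held 7, and the 3 highest cells held 17 of the summed 46 of the pair. Over all cells the pair was above 0 in 116 of 6589 control cells (1.76%, 1.46 to 2.11) and 63 of 5170 IRI cells (1.22%, 0.938 to 1.56). Intercalated cells of the collecting duct (CD-IC) followed with 12.3% of 57 control cells (5.08 to 23.7) and 5.45% of 55 IRI cells (1.14 to 15.1). Distal convoluted and connecting tubule (DCT/CNT) had 11% of control (7.32 to 15.7) and 6.35% of IRI cells (1.76 to 15.5). Its clusters differed. In control, Hspa1a was above 0 in 16 of 64 cells of cluster 24 (median 4506 UMIs). In cluster 15 (median 1262 UMIs) this was 4 of 172 cells. Control Cx3cr1+ macrophages had Hspa1a in 21 of 106 cells, so a share of that size was not particular to them. Control myofibroblasts had 9.68% of 31 cells (2.04 to 25.8) and control Ccr2+ macrophages 9.38% of 32 (1.98 to 25). TAL had 6.17% (3.81 to 9.37) and 3.57% (0.982 to 8.89), and tDL 2.81% (1.46 to 4.86) and 5.23% (3.34 to 7.74). The control intervals of Cx3cr1+ macrophages, CD-IC, DCT/CNT, myofibroblasts and Ccr2+ macrophages overlapped, so their order is not resolved. Over all cells TAL lay below Cx3cr1+ macrophages, but its control cells were shallower (median 1506.5 against 4348.5 UMIs). In deep control cells Hspa1a alone was above 0 in 9.63% of TAL (5.23 to 15.9). For Cx3cr1+ macrophages this was 20.4% (13.1 to 29.5), and these intervals overlap. In CD-IC, DCT/CNT and TAL the control share was the higher one, and in tDL the IRI share, all with overlapping intervals. Within tDL cluster 9, to which most IRI cells of that type belonged, the order was reversed. Hspa1a was found there in 13.9% of 36 cells from control, against 2.38% of 420 from IRI. For Hspa1b the shares were 19.4% and 3.1%. In tDL cluster 11 Hspa1a was at 0 in both libraries. The cells of cluster 9 are unlike between the libraries, as described below.

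Proximal tubule, the main target of ischaemia, had low shares. The first segment (PT-S1) had 0.833% of control and 1.42% of IRI cells, the second (PT-S2) 0.251% and 0.54%, and the third (PT-S3) 0.416% and 0.253%, with overlapping intervals in each. No T cell, B cell, neutrophil or resident macrophage was above 0. For resident macrophages this allows a share of up to 1.6% in control and 0.98% in IRI. Resident macrophages were shallow, with medians of 599.5 and 799.5 UMIs against 4953.5 and 4716 in PT-S1, so these limits do not hold for deeper cells. What part free RNA has in the proximal tubule shares was not tested. Hspa1a and Hspa1b reached a summed value of 30 in none of the 13 types that could be compared between libraries, and no fold is given for them.

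**Figure D3:**
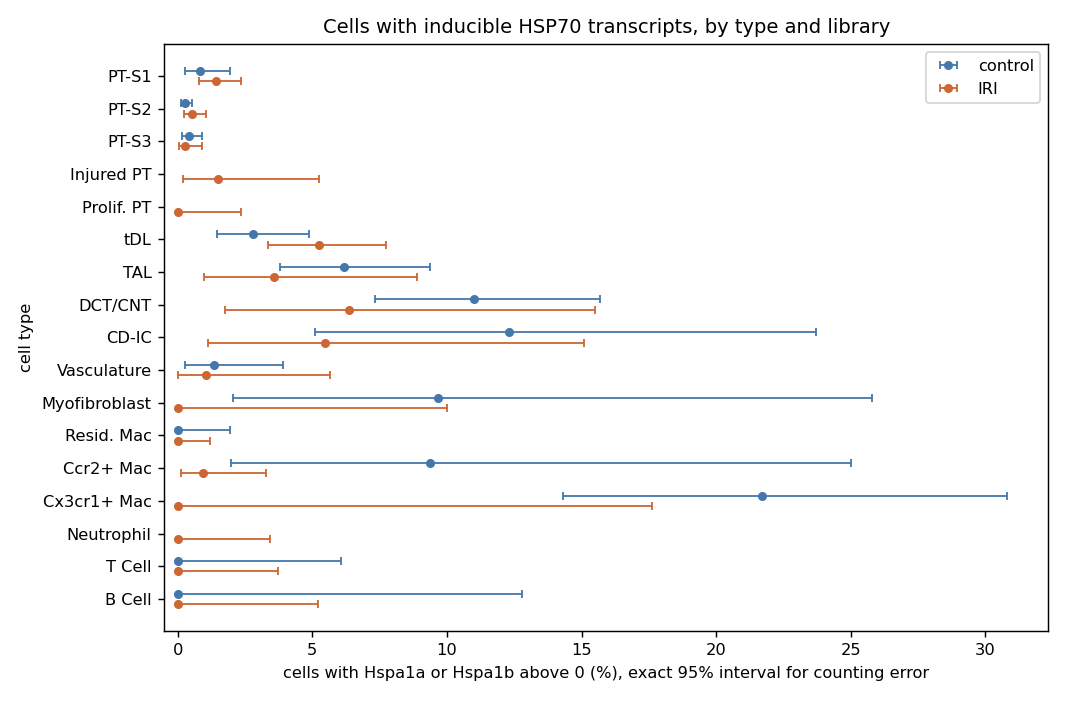
Percent of cells with Hspa1a or Hspa1b above 0 by cell type and library, with exact 95% intervals. Control Cx3cr1+ macrophages lie highest at 21.7%, distal tubule and intercalated cells follow, and proximal tubule lies near 0.

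Immediate early genes, which rise within minutes of handling or stress, were followed beside Hspa1a. Among control Cx3cr1+ macrophages, the 23 cells with the HSP70 pair had a mean of 3.65 for Jun against 1.45 in the other 83 cells, and 6.74 against 4.12 for Dusp1. Fos stood at 4.48 and 3.43, and Fosb, with the opposite order, at 0.0435 and 0.157. Dnajb1, the HSP70 partner, stood at 0.087 and 0.145, and Hspa8 at 1.83 and 1.9. Hspa5 was 0.652 and 0.361 and Hsph1 0.13 and 0.0602, both higher in the cells with the pair. Median depth was 4126 and 4579 UMIs. The summed level of 14 immediate early genes was 22.6 in control and 13.2 in IRI Cx3cr1+ macrophages, and 9.18 and 3.05 in CD-IC. It was 4.17 and 7.08 in DCT/CNT, where the order was the opposite, and 28.5 in IRI neutrophils, which had no cell with the pair. What part digestion has in these values was not tested.

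For the comparison of libraries, a gene counted as measured in a type where its values summed to at least 30 over both libraries, and a difference as large where it was at least 2-fold on the scale log2((IRI mean + 0.05)/(control mean + 0.05)). The comparison took in 13 types, each with 20 or more cells from control and from IRI. The members gave 74 measured pairs of gene and type. Of these, 4 were at least 2-fold higher in IRI and 1 was at least 2-fold lower, or 6.76% of the pairs. All genes gave 2884 of 42251 pairs, or 6.83%, so the share among the members was near that of all genes. By type, the share of all genes past 2-fold was 1.5% in PT-S1, 1.63% in PT-S2 and 4.53% in PT-S3, where 0 of 7, 0 of 8 and 1 of 8 measured members passed. It was 20.8% in tDL, where 3 of 8 members passed, and 20.5% in myofibroblasts, where 1 of 5 did. The other types had no member past 2-fold. There the share of all genes was 4.22% in B cells, 7.68% in CD-IC, 19.2% in Ccr2+ macrophages, 6.66% in DCT/CNT, 15.7% in resident macrophages, 3.72% in T cells, 5.59% in TAL and 6.39% in vasculature. The median log2 ratio of the measured members was 0.44 in tDL (all genes 0.01), 0.13 in PT-S1 (all genes -0.10) and 0.06 in PT-S3 (all genes -0.08). Scaling by a trimmed mean or median ratio shifted a whole type by -0.23 (PT-S1) to 0.27 (DCT/CNT), so smaller differences have no fixed direction.

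**Figure D4:**
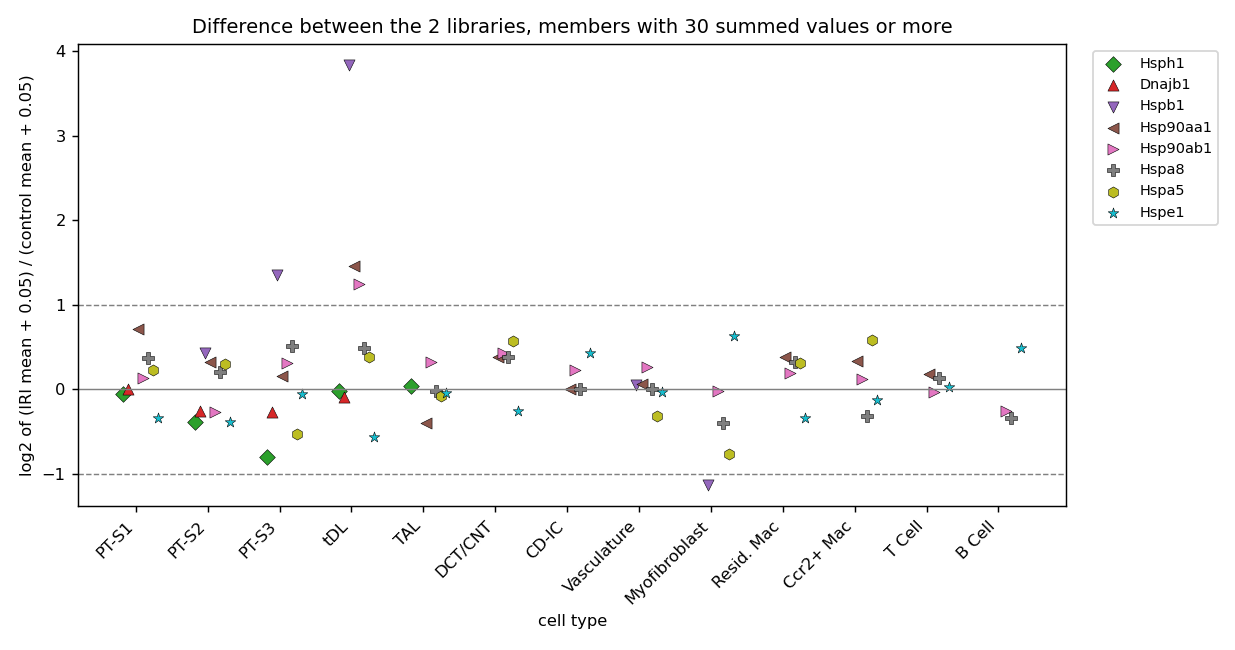
Log2 ratio of IRI over control (y axis, 0.05 added to each mean) by cell type (x axis), 1 point per measured gene, with dashed lines at 2-fold. Hspb1, Hsp90aa1 and Hsp90ab1 in tDL stand out at 3.84, 1.46 and 1.25, and Hspb1 in myofibroblasts at -1.13.

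Hspb1, the small heat shock protein that binds unfolding proteins and actin, was the member with the sharpest pattern over types. It stood at 0.793 in control and 0.823 in IRI vasculature, with 64.6% and 73.1% of deep cells above 0. In myofibroblasts its mean was 1 over 31 control cells and 0.429 over 35 IRI cells, a log2 ratio of -1.13. The shares there were 51.6% (33.1 to 69.8) and 22.9% (10.4 to 40.1), which overlap, and the log2 ratio was -0.67 in cells of at least 1000 UMIs. In PT-S3, 5 of 1442 control cells (0.347%, 0.113 to 0.807) and 43 of 790 IRI cells (5.44%, 3.97 to 7.26) had Hspb1. The means were 0.00347 and 0.0873, a log2 ratio of 1.36, and the share in deep cells was 0.466% and 6.14%. The intervals did not overlap. For other types of the same libraries, T cells had 0 of 59 cells in control and 4 of 97 (4.12%, 1.13 to 10.2) in IRI, with median depths of 2606 and 3345 UMIs against 4507.5 and 2338.5 in PT-S3. B cells had 5.8% (1.6 to 14.2) and Ccr2+ macrophages 1.38% (0.286 to 3.99) in IRI. PT-S1 had 1.72% (1 to 2.74) and PT-S2 1.75% (1.15 to 2.56) in IRI. Over all cells, the interval of PT-S3 in IRI lay above those of PT-S1 and PT-S2. It overlapped those of T cells, B cells and, at its edge, Ccr2+ macrophages. In deep IRI cells the interval of PT-S3 (4.08 to 8.8) lay above that of PT-S1 (1.06 to 3.1). It overlapped that of PT-S2 (3.64%, 1.83 to 6.42), so the order of these 2 segments is not resolved there. What part free RNA has in the PT-S3 share was not tested. The PT-S3 share rested mainly on cluster 3, where 42 of 727 IRI cells and 0 of 127 control cells had Hspb1.

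Injured proximal tubule, a type of 135 cells found in the IRI library alone, had Hspb1 in 18.5% of its cells (12.4 to 26.1), above the interval of T cells and overlapping that of B cells. Its mean was 0.378. Hsp90aa1 stood at 0.77 there, the highest IRI level of that gene, followed by proliferating proximal tubule (0.665) and tDL (0.636). In deep cells tDL stood highest, at 1.01 against 0.781 in injured proximal tubule. Hspa8 was 2.77 and Hspa5 0.407. No control cells carry this name, so these levels have no counterpart.

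The high IRI level of Hspb1 in tDL came from cluster 9, to which most IRI cells of the type belonged. There Hspb1 was above 0 in 151 of 420 IRI cells (36%), with a highest cell of 26 and a mean of 1.19. The 36 control cells of cluster 9 had 6 cells above 0 and a mean of 0.306, and cluster 11 stood at 0.00767 in control and 0 in IRI. Over the whole type the means were 0.0328 and 1.13 (log2 ratio 3.84). Hsp90aa1 stood at 0.199 and 0.636 (1.46) and Hsp90ab1 at 0.81 and 2 (1.25), while Hspa8 was 1.67 and 2.35. In IRI, Hspa8 was lower in cluster 9 (2.31) than in cluster 11 (3.25). The comparison over the whole type is between unlike cells. The 36 control cells of cluster 9 had Aqp2, a principal cell marker, at 5.33, against 0.164 in IRI. Umod stood at 0.222 and 2.89, and Havcr1, the tubule injury marker known as KIM-1, at 0 and 0.598. The proximal marker Kap stood at 75.6 in the control cells of cluster 11. With the clusters of the type weighted equally, Hsp90ab1 in tDL had a log2 ratio of 0.61. Within clusters 9 and 11 the log2 ratios of Hspb1 were 1.80 and -0.21. Those of Hsp90aa1 were 2.39 and 0.79, and those of Hsp90ab1 0.57 and 0.68. Each rests on few cells of 1 library, 36 from control in cluster 9 and 20 from IRI in cluster 11. What part the makeup of tDL has in these values was not tested.

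**Figure D5:**
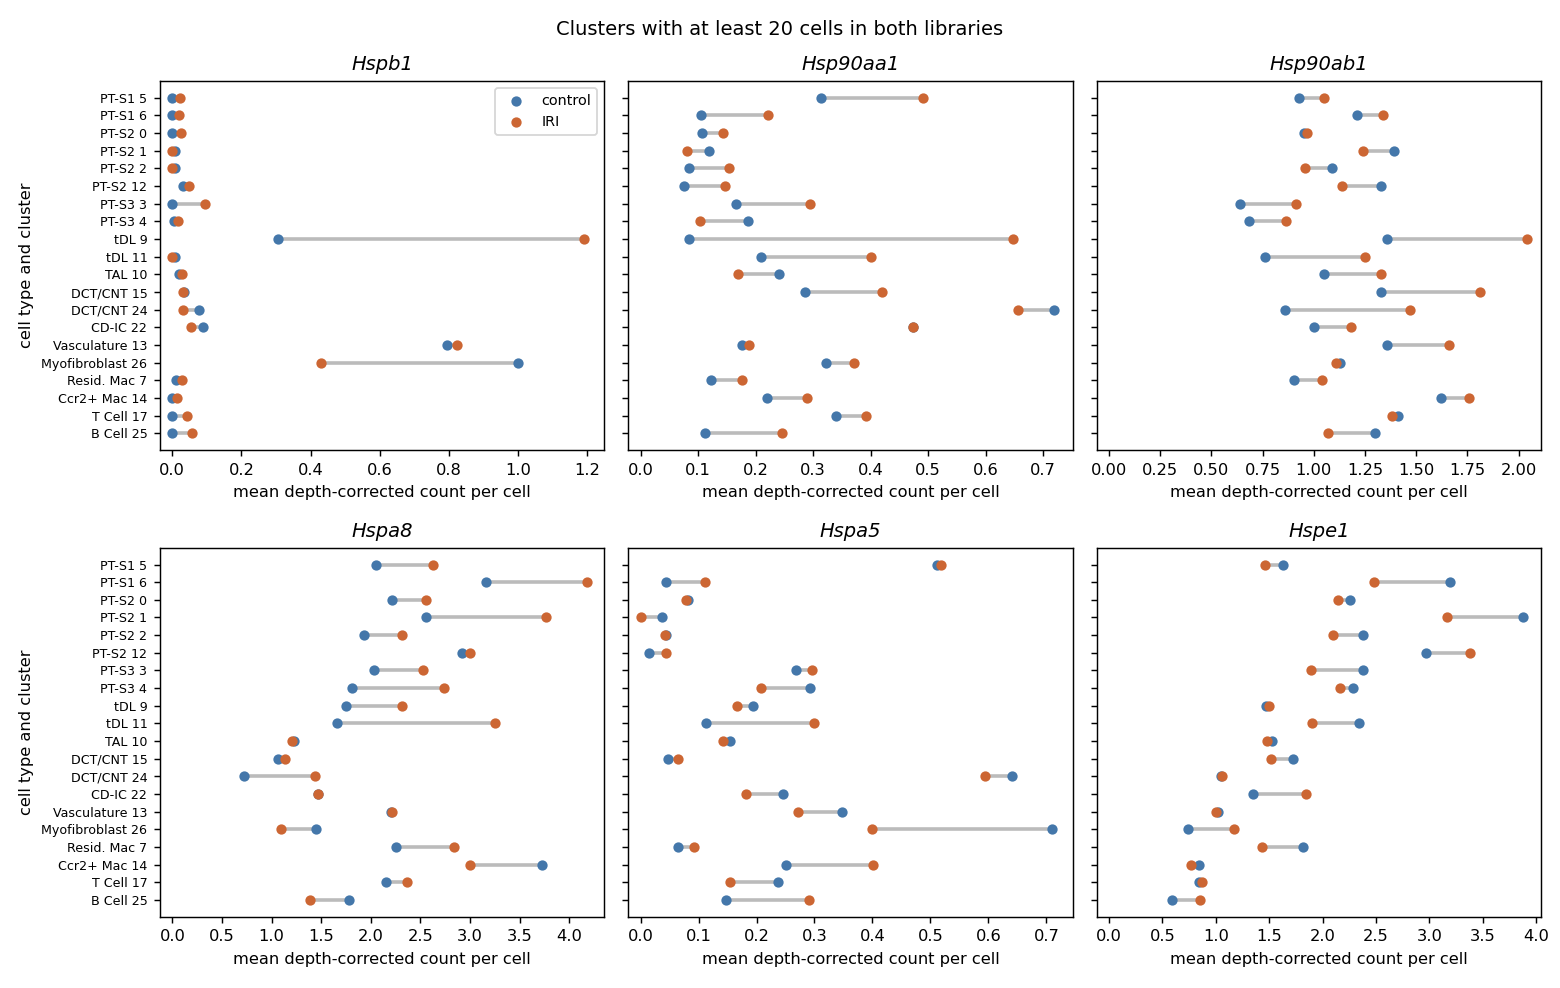
Mean depth-corrected value per cell (x axis) in control and IRI (points joined by a line) for each cluster with at least 20 cells in both libraries (y axis), 1 panel per gene. The IRI point of Hspb1 lies at 1.19 in tDL cluster 9 and at 0 in tDL cluster 11.

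Among the constitutive members, Hspa8 was higher in IRI in all 3 proximal tubule segments and Hspe1 lower in PT-S1 and PT-S2, all under 2-fold. Hspa8 stood at 2.61 and 3.4 in PT-S1 (log2 ratio 0.37), 2.28 and 2.66 in PT-S2 (0.21), and 1.76 and 2.54 in PT-S3 (0.52). In deep cells the ratios were 0.33, 0.16 and 0.50, and the ratio was above 0 in 8 of 8 proximal tubule clusters compared. Hspe1 stood at 2.5 and 1.96 in PT-S1 (-0.34), 3.14 and 2.4 in PT-S2 (-0.38) and 1.98 and 1.91 in PT-S3 (-0.05). Scaled by a trimmed mean, these became -0.12, -0.19 and 0.06, so the PT-S3 value has no fixed direction. Within proximal tubule clusters the unscaled ratio ran from -0.36 to 0.18. The mean of Hspe1 was highest in PT-S2 among the types of each library. Hsp90aa1 in PT-S1 went from 0.198 to 0.357 (0.71), with 17.2% (14.2 to 20.4) and 27.4% (24.6 to 30.3) of cells above 0. Hsp90ab1 ranged from 0.726 to 2 over the compared types, and its tDL value was the only one past 2-fold.

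Among types with at least 20 cells, Hspa5 was highest in control myofibroblasts (0.71, against 0.4 in 35 IRI cells). In PT-S3 it was 0.442 in control and 0.291 in IRI (-0.53), and in PT-S1 0.263 and 0.317 (0.23). The PT-S3 difference was present in 1 of the 2 clusters that could be compared. Cluster 3 stood at 0.268 and 0.296 and cluster 4 at 0.292 and 0.207, while the control-rich clusters 8 and 21 stood at 0.64 and 0.814. Within PT-S1, cluster 5 had the higher level in both libraries (0.512 and 0.519), against 0.0435 and 0.111 in cluster 6. In 19 IRI Cx3cr1+ macrophages Hspa5 was 1.16, against 0.425 in 106 control cells, too few cells for a ratio here.

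The HSP70 partners Hsph1 and Dnajb1 had low levels. They were measured in 5 and 4 of the 13 compared types, with no ratio past 2-fold. Hsph1 was highest in control PT-S3 (0.107) and stood at 0.0405 in IRI PT-S3 (-0.80, under 2-fold). Dnajb1 stood at 0.186 and 0.175 in T cells and at 0.158 and 0.182 in CD-IC. Its highest IRI level, in neutrophils (0.189), came from 1 cell that held 11 of the summed 20. In proximal tubule its ratios were 0.01, -0.25 and -0.27.

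Across the deep cells of a type and library, members varied mostly apart, with medians of pairwise correlation between -0.03 and 0.05. In 7 of 13 groups Hsp90ab1 and Hspa8 were the closest pair (Pearson's r from 0.23 to 0.31), and in 7 of 13 Hspa5 and Hspe1 the most opposed (from -0.07 to -0.26). Such cells share a library and a depth correction, and these values describe them only. Over 31 groups of type and library, the 5 genes of 2087 with the pattern most like Hspa1a included Atp6ap2 (Pearson's r 0.65), Pnpla2 (0.62), Smim5 (0.60) and Zfp467 (0.57). For Hspa5 they were Hnrnph1 and Tmco1 (both 0.85) and Ddx17, Tm9sf3 and Eif3a (all 0.83).

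The wider chaperone system was followed by 8 lists that hold 101 genes. These gave 613 measured pairs of gene and type, of which 14 were at least 2-fold higher and 24 at least 2-fold lower in IRI. That is 6.2% of the pairs, near the 6.83% of all genes. Partners of HSP70 had 0 of 67 pairs past 2-fold and co-chaperones of HSP90 0 of 75. J-domain proteins had 1 higher and 10 lower of 79, or 13.9%. Of those 10, 8 were Dnajc12, named after its values were seen, which was at least 2-fold lower in 8 types. Its control mean was 2.15 in PT-S2, against 0.311 in vasculature and 0.282 in resident macrophages. What part free RNA has in the types outside proximal tubule was not tested. In Ccr2+ macrophages Dnajc7 stood at 0.75 in control and 0.101 in IRI (-2.40) and Dnaja2 at 0.0312 and 0.143 (1.25), where control had 32 cells. The small heat shock proteins had 0 higher and 1 lower of 12, or 8.33%. The lower one was Cryab, a lens and muscle chaperone, in myofibroblasts (2.48 and 1, -1.27).

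Chaperones of the endoplasmic reticulum had 10 higher and 7 lower of 160 pairs, or 10.6% against 6.83% of all genes. In Ccr2+ macrophages 3 of 14 measured members passed, where 19.2% of all genes did. There Pdia6, which forms disulphide bonds, stood at 0.0625 in control and 0.309 in IRI (1.67). Canx, which holds glycoproteins, stood at 0.0938 and 0.318 (1.36), and Edem1 at 0.0625 and 0.212 (1.22). Control had 32 cells of this type, and these control means lie near the constant added to each mean, so the ratios rest on few counts. Of all genes in Ccr2+ macrophages, 286 were at least 2-fold higher in IRI and 82 at least 2-fold lower. Herpud1 was at least 2-fold lower in 5 types and was named after its values were seen. Mitochondrial chaperones had 0 higher and 4 lower of 74, or 5.41%, below the 6.83% of all genes. In tDL, where 20.8% of all genes passed, Trap1 stood at 0.269 and 0.0591 (-1.55). Dnajc19 stood there at 0.815 and 0.327 (-1.20) and Grpel1 at 0.316 and 0.127 (-1.05). Chaperonin and prefoldin genes had 2 higher and 2 lower of 122, or 3.28%, among them Cct4 in Ccr2+ macrophages (0.719 and 0.327, -1.03). Heat shock factors and their regulators had 1 higher of 24, or 4.17%, which was Ier5 in tDL (0.00937 and 0.0932, 1.27). Of the immediate early genes, 20 pairs were higher and 12 lower of 120, or 26.7% against 6.83% of all genes. In 4 types 4 genes were higher and 0 lower. These were DCT/CNT (of 9 measured, all genes 6.66%), PT-S1 (of 13, all genes 1.5%), resident macrophages (of 8, all genes 15.7%) and tDL (of 12, all genes 20.8%). PT-S3 had 0 higher and 3 lower of 12 (all genes 4.53%). CD-IC had 0 higher and 8 lower of 10 (all genes 7.68%). There Dusp1 stood at 0.632 and 0.0909 (-2.27), Fosb at 0.509 and 0.0727 (-2.19), Btg2 at 0.965 and 0.236 (-1.83) and Jun at 1.46 and 0.382 (-1.80). The tDL values of these lists carry the same change of cells as above.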

How the data were processed

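Single-cell RNA-seq data of 1 control and 1 IRI library of mouse kidney were compared, with groups taken from the labels. Per the submitters' processing notes, Cell Ranger 3.0.0 and Seurat 3.2 were used with build mm9. The deposited first table holds whole-number scores per gene and cell that the authors corrected for depth; total, range and zeros showed them to be no raw counts. A second deposited table holds the natural log of the score plus 1, and another holds residuals, used only as a guide to split the metadata (raw UMIs, cluster, type), which the authors wrote without separators. Of 11759 cells, 3615 allowed more than 1 split, and the guide chose no other one. Cell type names are the deposited ones. Doublets were not called here.

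Means over cells, shares above 0 and log2 ratios (0.05 added to each mean) were computed in Python 3.11.15 with numpy 2.4.6, scipy 1.17.1 and pandas 2.3.3, tested on simulated data. Intervals are 95% Clopper-Pearson and cover counting error only. With 1 library per group, no p-value was computed. Named genes were the 10 members, of each other list those at least 2-fold different in the type with most of them (up to 4), and the 5 genes most like Hspa1a and Hspa5. One gene that this rule names is not reported here. Members and lists were chosen with earlier results of these data known. Promoters come from RefSeq (GRCm38.p6). Alternatives for scaling, the added value, depth, cells, clusters, the limit and the minimum are in the closing section.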

Additional observations from a re-analysis of the deposited data

Results flagged for a closer look

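Hspb1 was the member whose differences past 2-fold went in opposite directions in different cell types. Its log2 ratio of IRI over control was 1.36 in PT-S3 and 3.84 in tDL, both past 2-fold, and -1.13 in myofibroblasts, also past 2-fold in the opposite direction. Each rests on 1 library per group, and the difference between the types was not tested. The myofibroblast value comes from 31 control and 35 IRI cells, the tDL value from unlike clusters, and the PT-S3 value from 43 of 790 IRI cells and 5 of 1442 control cells.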

How the results depend on the processing

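No paired analysis was possible because each group is 1 library. Among the 74 measured ratios of members, no alternative reversed one that was past 2-fold. The members at least 2-fold higher (4) became 2 with clusters weighted equally, 0 with means of logs, 7 at a 1.5-fold limit, 5 with 0.01 added, 3 with 0.2 added, 3 without the highest 1 in 100 cells and 5 without the minimum of 30. Those lower (1) became 2 with 0.01 added, 0 with 0.2 added, 0 with either other scaling, 0 in cells of at least 1000 or 2000 UMIs, 0 with means of logs, 3 at the 1.5-fold limit and 5 without the minimum of 30. In the other lists, the 14 higher became 32 with 0.01 added, 1 with 0.2, 22 in cells of at least 2000 UMIs, 25 without the highest 1 in 100 cells, 0 with means of logs, 62 at 1.5-fold and 35 without the minimum, and the 24 lower became 46, 10, 1 (means of logs), 76 and 69 (no minimum). The type with the highest level was the same in 13 of 20 orders in deep cells, and in 13 of 20 by share. Hspb1 in PT-S3 was 0.50 with 0.2 added and 1.00, just under the limit, without the highest cells or with clusters weighted equally. Means of logs lie on another scale, which makes the ratios smaller. Types that lacked 20 cells at 2000 UMIs had no value there. Causes of the other changes were not tested. Hspa1a and Hspa1b did not reach the minimum in any compared type.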
